A study of Mus musculus with 15 samples.

Results

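The 8 genes described here make or respond to the extracellular matrix: Ccn1 (also written Cyr61), Ccn2 (Ctgf), Lox, Thbs1, Col1a1, Col1a2, Fn1 and Vim. They were chosen by name, of 19443 genes with a current symbol on the expression arrays, and every probe carrying one of these names was used. That gave 16 expression probes for all 8 genes and 37 promoter probes for 7 of them, since no promoter probe carries the name Ccn1. The study compared 2 mouse embryonic stem (ES) cell lines. J1 is a wild-type line, and TKO carries knockouts of Dnmt1, Dnmt3a and Dnmt3b, the genes of its DNA methyltransferases. Both were grown in serum and LIF, a cytokine that keeps ES cells undifferentiated, and were passaged 2 times without feeder cells before DNA was taken. Each genotype is a single line, and nothing says that replicates were separate cultures, so p-values measure only the spread between these arrays. RNA of both lines was hybridised together on 3 two-colour arrays, deposited as 1 sample. For MeDIP, in which an antibody to methylated cytosine pulls down DNA fragments, 2 ug of genomic DNA was used, with 7 arrays for one set of promoters and 7 for a second set, 15 samples in all.

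Fibroblasts and other mesenchymal cells are the textbook source of these proteins. Type I collagen, built from the chains encoded by Col1a1 and Col1a2, forms stiff fibres that the enzyme Lox crosslinks, and fibronectin, from Fn1, links the fibres to integrins on the cell surface. Ccn1, Ccn2 and Thbs1 encode secreted matricellular proteins that signal through such receptors, and the first pair are standard reporters of YAP and TAZ, co-activators that bind DNA through TEAD factors when the Hippo kinases are inactive. Vim encodes vimentin, an intermediate filament protein of mesenchymal cells that cultured ES cells also make.

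RefSeq promoter windows were at hand for 3 of the 8 genes, Ccn1, Col1a2 and Vim (build GRCm38.p6), and their 250 bases upstream of the start are shown because DNA methylation in mammals lies mainly at CpG. Capitals mark each CpG, and each sequence is read 5′ to 3′ on the strand of the gene.
Ccn1, chr3:145649986-145650235, minus strand: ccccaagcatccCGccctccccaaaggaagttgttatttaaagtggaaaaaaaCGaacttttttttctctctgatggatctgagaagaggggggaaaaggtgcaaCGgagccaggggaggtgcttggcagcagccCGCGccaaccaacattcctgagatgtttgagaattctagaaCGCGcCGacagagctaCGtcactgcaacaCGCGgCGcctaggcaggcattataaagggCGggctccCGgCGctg
Col1a2, chr6:4505368-4505617, plus strand: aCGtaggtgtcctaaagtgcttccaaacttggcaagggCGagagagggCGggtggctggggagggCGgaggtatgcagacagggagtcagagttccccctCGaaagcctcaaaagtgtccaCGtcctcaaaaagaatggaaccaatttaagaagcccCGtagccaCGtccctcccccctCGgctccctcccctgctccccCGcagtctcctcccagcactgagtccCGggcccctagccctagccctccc
Vim, chr2:13574061-13574310, plus strand: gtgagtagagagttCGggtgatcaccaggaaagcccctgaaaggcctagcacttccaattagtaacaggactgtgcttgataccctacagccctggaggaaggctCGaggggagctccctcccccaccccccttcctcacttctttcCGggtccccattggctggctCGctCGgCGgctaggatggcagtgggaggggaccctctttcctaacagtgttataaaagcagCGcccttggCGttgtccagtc
With the 50 bases after the start included, the Ccn1 window holds 20 CpGs, the Col1a2 window 13 and the Vim window 11, against a median of 7 over 32851 windows of 300 bases. Fewer CpGs than these were held by 73.5%, 62.1% and 58.6% of windows, in that order. The TEAD motif GGAATG, searched on both strands, occurs once in the Ccn1 window, on the strand opposite to the gene at bases -103 to -98, shown here in capitals because Ccn1 is a TEAD reporter.
Ccn1, TEAD motif: gccaaccaaCATTCCtgagatgtt
Of all windows, 14.7% hold that motif. The letters TATAAA lie at bases -25 to -20 of Ccn1 and -32 to -27 of Vim, a motif found in 13.6% of windows. The AP-1 motif TGANTCA, held by 7.81% of windows, and the CArG box, held by 1.63%, have no match in the 3 windows, nor do the letters GGAATG in those of Col1a2 and Vim. These are letter matches within short windows and not binding sites.

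The labels state that the dyes were exchanged on 1 expression array without naming which line carried which dye. The likely order, J1 in Cy5 on replicates 1 and 3 and in Cy3 on replicate 2, was taken as the one in which the deleted genes are lower in TKO. Their direction is therefore no check of it, and every direction below rests on it. The log2 ratio of TKO over J1 was -2.50 ± 0.19 (SD, n = 3) for Dnmt3b, -2.36 ± 0.18 (n = 2) for Dnmt3a and -1.07 ± 0.25 (n = 2) for Dnmt1, after normexp background correction and loess. Replicate 3 was the weakest array, with 8386 of 41534 spots marked as uneven by the scanner software against 11 and 57 on the others. Of its spots, 38.6% to 39.6% were well above background, against 52.4% to 66.8% on replicates 1 and 2. Uneven spots were left out, and for 5 of the 8 genes the spot on replicate 3 was one of them, so those genes have 2 arrays.

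Matricellular genes and Lox were higher in TKO, by 2.20- to 3.83-fold, type I collagen was higher by 1.40- and 1.99-fold, Fn1 was not called, and Vim was lower in TKO by 1.45-fold. In limma, with p-values adjusted over 12076 genes, 5 of the 7 genes that passed the filter on dim probes (Ccn1, Lox, Thbs1, Col1a1, Col1a2) were higher at an adjusted p under 0.05, where 16.9% of all genes were. Vim alone of the 7 was lower, where 15.8% of all genes were. At a 2-fold change on top, Ccn1, Lox and Thbs1 were higher, where 1.63% of all genes were, and none of the 7 was lower, where 0.720% were. The median log2 ratio was 1.00 over these 7 genes and -0.01 over all genes. All levels below are log2 intensities after loess and quantile normalisation of the mean of both channels between arrays. They are compared only between lines within one probe.

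**Figure D1:**
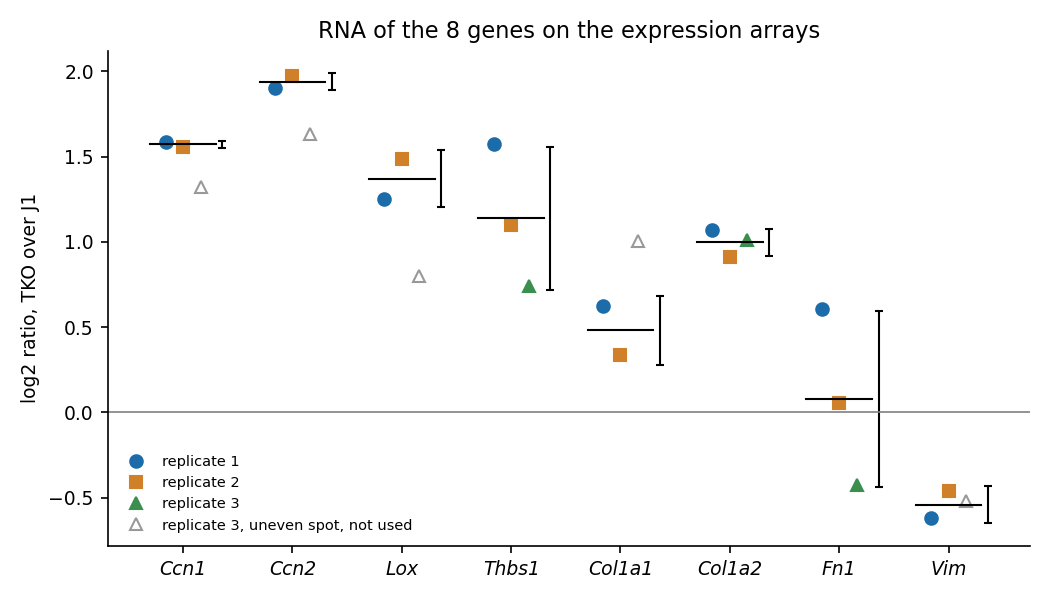
Log2 ratio of TKO over J1 on each expression array for the brightest probe of each gene. Filled symbols are the arrays used, horizontal lines their mean and bars the SD, and hollow triangles are replicate 3 spots marked as uneven and not used. The ratios of Ccn1, Ccn2, Lox, Thbs1, Col1a1 and Col1a2 lie above 0 on every array used, those of Vim below 0, and those of Fn1 on both sides.

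Ccn2, whose secreted product binds integrins and growth factors, had a log2 level of 9.92 in J1 and 11.82 in TKO on replicate 1, and of 10.09 and 12.06 on replicate 2. Both TKO values lay above both J1 values. Its log2 ratio was 1.94 ± 0.05 (SD, n = 2), or 3.83-fold, the highest of the 8 genes with this processing, while with Agilent processed signals Lox (2.22) exceeded Ccn2 (2.001). Its spot on replicate 3 was uneven and not well above background, so the gene failed the filter, which asked for signal on all 3 arrays. With a filter on the arrays whose spot was kept, chosen after seeing the data, Ccn2 was tested among 13360 genes and was higher at an adjusted p of 6.17e-06 in limma.

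Ccn1, a close relative of Ccn2 with the same domain order, had a log2 level of 7.30 in J1 and 8.88 in TKO on replicate 1, and of 7.33 and 8.89 on replicate 2. The 2 arrays differed by far less than the lines did. The log2 ratio was 1.57 ± 0.02 (SD, n = 2; 95% interval 1.34 to 1.81), or 2.97-fold, with an adjusted p of 2.15e-05 in limma. With a normexp offset of 16 it was 1.82 and with Agilent processed signals 1.98, both above that interval. The uneven spot on replicate 3 that was left out read 1.32. The genes whose ratios lay nearest to those of Ccn1, by Euclidean distance over its 2 arrays among 3832 genes measured on the same arrays, were C430049B03Rik (1.62 ± 0.09), Krt14 (1.55 ± 0.14), a keratin, and Ifi27 (1.67 ± 0.03), each with n = 2.

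Thbs1, which encodes thrombospondin 1, an activator of latent TGF-beta, was measured on all 3 arrays. Its log2 levels in J1 were 7.58, 7.47 and 8.36 on replicates 1, 2 and 3, and in TKO 9.15, 8.58 and 9.10. Every TKO value exceeded every J1 value. The ratios of 1.57, 1.1 and 0.74 gave a mean of 1.14 ± 0.42 (SD, n = 3), the widest spread among the called members of the 8, with an adjusted p of 3.17e-04 in limma. The other 2 probes of Thbs1 were well above background in TKO on 1 array and in J1 on none, and their measured ratios ran from 0.18 to 0.45.

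Lox, the copper enzyme that starts crosslinking of collagen and elastin, had a log2 level of 6.49 in J1 and 7.74 in TKO on replicate 1, and of 6.67 and 8.16 on replicate 2. Both TKO values lay above both J1 values. The log2 ratio was 1.37 ± 0.17 (SD, n = 2; 95% interval 1.12 to 1.62), or 2.58-fold, with an adjusted p of 6.08e-05 in limma. As for Ccn1, the size of this ratio depended on the processing. It was 1.82 with a normexp offset of 16 and 2.22 with Agilent processed signals, both above that interval. The uneven spot on replicate 3 read 0.80.

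The 2 chains of type I collagen had measured ratios of 1.00 and 0.48, and the difference between them was not tested. Col1a2 had log2 levels of 7.80, 7.88 and 8.003 in J1 and of 8.86, 8.79 and 9.02 in TKO, with no overlap. Its ratio was 1.00 ± 0.08 (SD, n = 3; 95% interval 0.81 to 1.18), with an adjusted p of 3.61e-05 in limma, just under 2-fold. The Col1a2 ratio was over 2-fold with a normexp offset of 16 (1.13) and with Agilent processed signals (1.20, above that interval). With median centring it was under 2-fold (0.82). Col1a1 had log2 levels of 8.33 and 8.25 in J1 and of 8.95 and 8.59 in TKO on replicates 1 and 2. Its ratio was 0.48 ± 0.20 (SD, n = 2; 95% interval 0.22 to 0.74), with an adjusted p of 0.0125, and without replicate 1 the call was lost (0.34, adjusted p 0.153). The uneven spot on replicate 3 read 1.00. A second Col1a1 probe, well above background on all arrays, gave 0.36, 0.06 and 0.27, and in the limma fit of every probe its adjusted p was 0.0753 against 0.0131 for the brighter probe. One more probe of each collagen gene was not well above background on any array in either line.

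Fn1 showed no common direction. Its log2 levels were 9.49, 9.49 and 10.18 in J1 and 10.10, 9.55 and 9.75 in TKO on replicates 1, 2 and 3, and the lines overlapped. The ratio was 0.61 on replicate 1, 0.06 on replicate 2 and -0.43 on replicate 3, a mean of 0.08 ± 0.52 (SD, n = 3; 95% interval -0.28 to 0.44; adjusted p 0.745 in limma). A second Fn1 probe gave 0.50, -0.19 and -0.13. The last was well above background on 1 array, in TKO only.

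Vim went the other way. Its log2 levels were 11.59 and 11.70 in J1 and 10.98 and 11.24 in TKO on replicates 1 and 2, with both TKO values below both J1 values. The ratio was -0.54 ± 0.11 (SD, n = 2; 95% interval -0.78 to -0.30), with an adjusted p of 0.00538 in limma. The uneven spot on replicate 3 read -0.52. The call was lost at about the same ratio without replicate 1 (-0.46, adjusted p 0.0648) and when arrays were centred on their median in place of loess (-0.58, adjusted p 0.172). A second probe, designed on another transcript, was not well above background on any array.

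**Figure D2:**
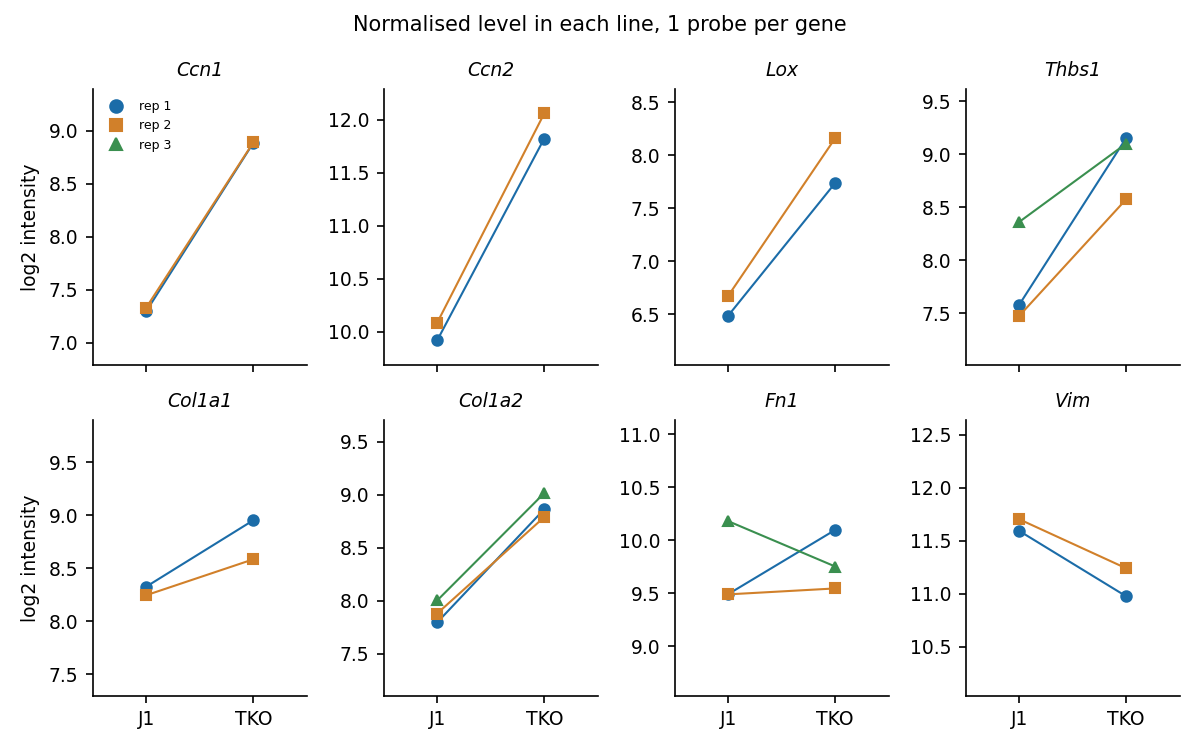
Log2 intensity of each gene's brightest probe in J1 and TKO, with lines joining the 2 channels of 1 array. Each vertical axis spans the same log2 range but starts at another level, and levels are not comparable between genes. Lines rise from J1 to TKO for 6 genes, fall for Vim, and go both ways for Fn1.

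Median centring in place of loess moved the median of all genes to -0.10 and left 380 genes higher and 740 lower, against 2041 and 1902 with loess. Under it Ccn1, Lox, Thbs1 and Col1a2 stayed higher, Col1a1 and Vim lost their calls at ratios as large as before (0.52 and -0.58, adjusted p 0.243 and 0.172), and the mean of Fn1 turned to -0.16. The authors' deposited table, a mean log10 ratio whose dye direction is not stated and which follows the turned scanner ratios (r = 0.968 over all spots), lists 0.60 for Ccn1, 0.62 for Ccn2, 0.59 for Lox, 0.42 for Thbs1, 0.36 for Col1a2, 0.22 for Col1a1, 0.03 for Fn1 and -0.16 for Vim.

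Other targets of YAP and TEAD moved in both directions. In all lists a gene passed the filter when its probe was above background in 1 line only, so a gene could enter through the line where it was high. Over all genes 16.9% were higher in TKO and 15.8% lower, the shares to set beside each list count below. Of 26 listed genes 19 were tested, 8 were higher in TKO and 3 lower, with a median log2 ratio of 0.06. With signal required in both lines 5 of 15 were higher, as were 5 of 19 without replicate 2. Ankrd1, a muscle ankyrin repeat protein, rose by 1.45 ± 0.08 (SD, n = 3), Amotl2, an angiomotin that binds YAP, by 1.00 ± 0.18, F3, tissue factor, by 0.97 ± 0.14, and the Hippo kinase gene Lats2 by 0.82 ± 0.24. Among 16 tested genes of the Hippo pathway itself, 3 were higher, a share near the 16.9% of all genes (Amot 1.67 ± 0.14, n = 2; Wwtr1, which encodes TAZ, 0.42 ± 0.34; Mob1a 0.37 ± 0.16, n = 2) and 1 lower, the upstream regulator Nf2 at -0.63 ± 0.13. Without replicate 1 or replicate 2 the count higher was 1. Of 18 tested genes in the list of SRF, the actin-responsive transcription factor, its cofactors and cytoskeletal targets, 7 were higher and 1 lower. They include Fhl2 (1.38 ± 0.23) and the focal adhesion gene Zyx (1.11 ± 0.24), while the actin crosslinker Flna was at -0.89 ± 0.21 (n = 2).

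Matrix genes outside the 8 were more often called higher than lower. Of 31 listed, 13 were tested, and 9 were higher and 2 lower, where 16.9% and 15.8% of all genes were, with a median of 0.41. With median centring 3 of the 13 were higher and 1 lower, where 380 and 740 of 12076 genes were. Without the filter on dim probes 13 of 31 were higher and 2 lower, where 2284 and 2034 of 28030 genes were. Fbln2, a fibulin, rose by 1.05 ± 0.28 (n = 2), Mgp by 0.88 ± 0.16 and Efemp2, another fibulin, needed for elastic fibres, by 0.78 ± 0.20. Genes that fold and process collagen gave 6 higher and 1 lower of 13, or 3 and 0 without replicate 1 or replicate 2, led by the collagen chaperone Serpinh1 at 1.85 ± 0.20 (n = 2), with P4hb, a subunit of prolyl hydroxylase, at 0.58 ± 0.17. Matrix receptors gave 7 higher and 0 lower of 13. The count lower was 1 without replicate 2, with every probe fitted, and with the mean over probes. With signal required in both lines 5 of 9 receptors were higher. The collagen receptor chain Itga11 was at 1.06 ± 0.10 (n = 2), Plaur at 0.77 ± 0.07 (n = 2) and Itgb1 at 0.50 ± 0.17. Relatives of the 8 genes gave 3 higher of 7, Nes, an intermediate filament gene like Vim, at 0.91 ± 0.08 (n = 2), Lmna at 0.78 ± 0.14 and Comp, a thrombospondin, at 0.72 ± 0.06 (n = 2).

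Genes of the TGF-beta pathway gave 2 higher and 4 lower of 11, where 15.8% of all genes were lower, and the 4 became 2 without any 1 of the 3 replicates. Tgfbi, a secreted protein induced by TGF-beta, fell by 0.96 ± 0.08 (n = 2). Mesenchymal transcription factors and cadherins gave 5 higher of 7, where 16.9% of all genes were, or 3 of 4 with signal required in both lines. With median centring 1 of 7 was higher, where 380 of 12076 genes were. Among the 5 were Cdh11 at 1.18 ± 0.17 (n = 2), Tbx18 at 0.58 ± 0.02, Prrx1 at 0.51 ± 0.10 and Twist1 at 0.47 ± 0.03. Over the 9 lists of pathway and matrix genes 62 of 117 tested genes were called in either direction, and 23 with median centring.

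**Figure D3:**
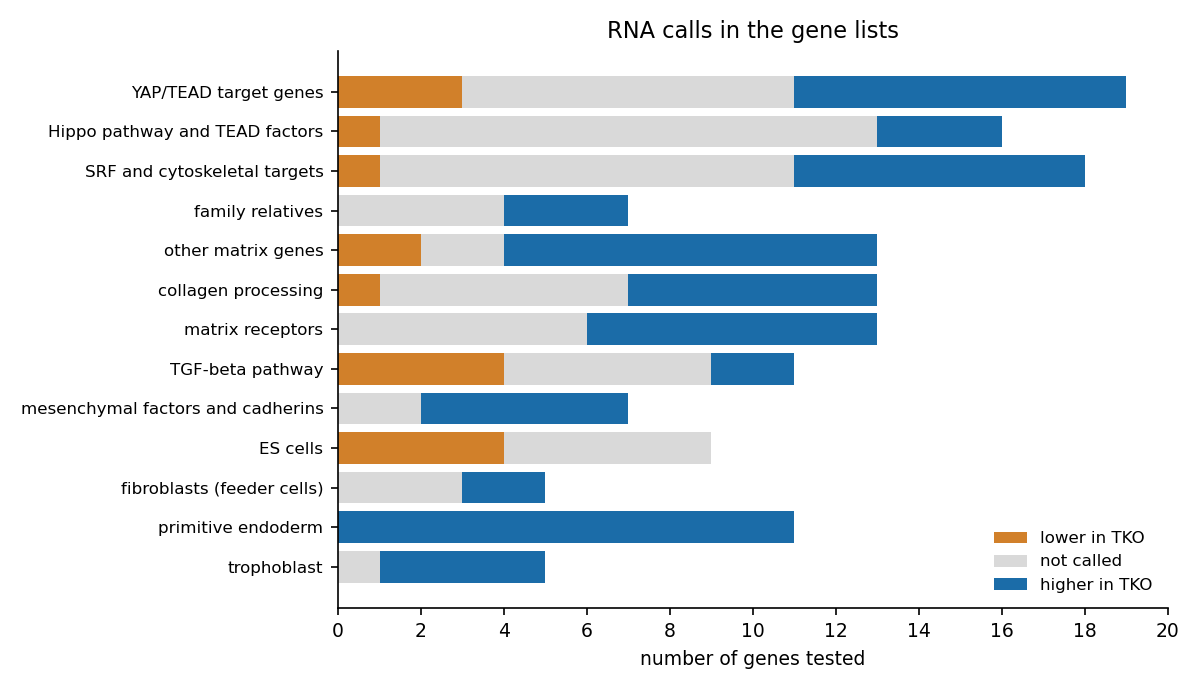
Numbers of genes tested in each list, split into lower in TKO, not called and higher in TKO at an adjusted p under 0.05 in limma. All 11 primitive endoderm genes tested and 9 of 13 other matrix genes were higher, and 4 of 11 TGF-beta pathway genes were lower. Over all genes 16.9% were higher and 15.8% lower.

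Markers of other cell types also differed between the lines, and their part in the changes of the 8 genes was not tested. Fewer cells of a type and less RNA per cell cannot be told apart in these bulk samples. For counts of markers in the main processing, the shares over all genes were 16.9% higher and 15.8% lower. With signal required in both lines 1779 of 10893 genes were higher and 1676 lower. Of 17 fibroblast markers, which stand for feeder cells too, 5 passed the filter, and 2 were higher (S100a4 1.42 ± 0.07, n = 2; Prrx1 0.51 ± 0.10). With signal required in both lines 1 of 4 was higher. Fap, Lum and Twist2 were not well above background on any array. The summed intensity of the 13 fibroblast probes measured on all arrays was 1028 to 1170 in J1 and 1104 to 1233 in TKO, or 1.05 to 1.12 times J1 within an array. Every intensity includes the normexp offset of 50, so probes near background add to both sums and draw this ratio toward 1. The S100a4 probe, measured on 2 arrays, is not in the sum. All 11 tested markers of primitive endoderm were higher (9 of 9 with signal required in both lines), with a median of 1.32. They include Afp (3.86 ± 0.25, n = 2), Dab2 (2.39 ± 0.27), Col4a1 (1.67 ± 0.39) and Gata6 (1.57 ± 0.09). The sum of 10 probes was 2812 to 4146 in J1 and 4801 to 6990 in TKO. Of 5 tested trophoblast markers 4 were higher, Krt8 (2.90 ± 0.30), Krt18 (2.36 ± 0.20), Gata3 (2.01 ± 0.27, n = 2) and Krt7 (1.44 ± 0.01, n = 2). The sum of 8 probes was 5545 to 7866 in J1 and 28823 to 42832 in TKO. Of 9 tested ES cell markers 4 were lower, Nodal (-0.996 ± 0.14), Sox2 (-0.80 ± 0.10), Pou5f1 (-0.72 ± 0.14, n = 2) and Esrrb (-0.45 ± 0.06, n = 2). All 11 ES markers with a probe were well above background on at least 1 array in J1 or TKO. The sum of the 4 ES probes measured on all arrays was 48246 to 74609 in J1 and 62799 to 99396 in TKO. Within an array it was 1.504, 0.84 and 2.06 times J1 on replicates 1, 2 and 3, with no common direction. Dppa5a, named after its values were seen, swung in the same way (0.66, -0.23 and 1.17), while Nodal and Sox2 were below 0 on every array.

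MeDIP signal was measured at the promoters of 7 of the 8 genes, all but Ccn1, and differed little between the channels. Values are log2 ratios of the channel labelled J1 (Cy3) over the channel labelled TKO (Cy5), each array centred on its median, so 0 is the typical probe and not an absence of methylation. Because all 14 arrays carry the lines in the same dyes, dye and line cannot be told apart, and neither side is read here as the methylated line. Over 14530 promoters the middle of the distribution, from the 5th to the 95th percentile, ran from -0.41 to 0.21. No promoter of the 7 reached a size of 0.5 with an adjusted p under 0.05 in limma on the J1 side, where 0.0826% of all promoters did, or on the TKO side, where 2.60% did. At any size 6 of 7 lay on the J1 side at an adjusted p under 0.05, where 25.7% of all promoters did, and 0 on the TKO side, where 31.0% did. All 6 were at 0.26 or less on the log2 scale. With arrays centred on the mode, 2413 promoters lay on the J1 side and 5203 on the TKO side, against 3728 and 4500 with the median, and 5 of the 7 were on the J1 side.

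**Figure D4:**
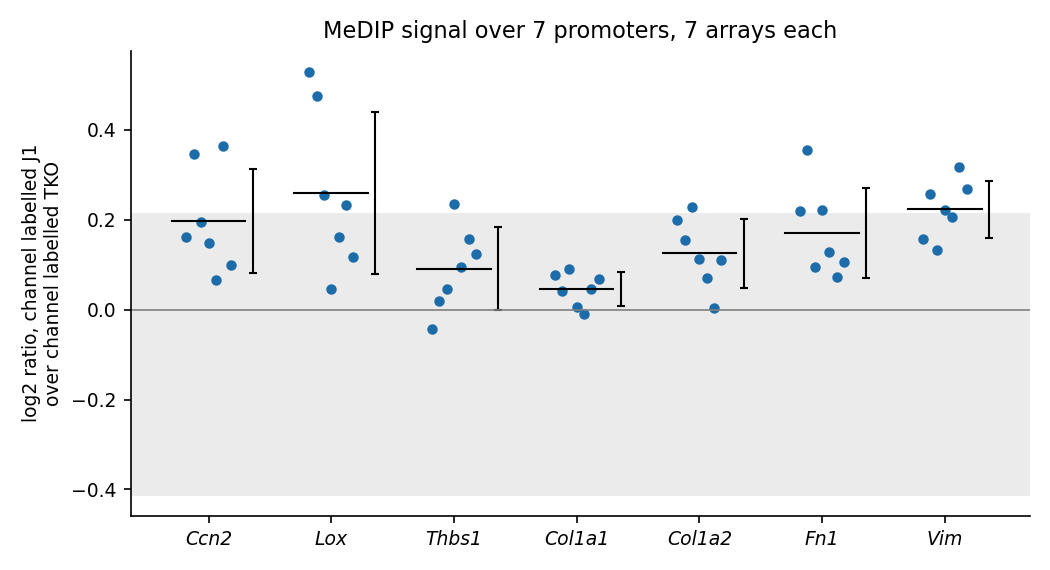
Log2 MeDIP ratio of the channel labelled J1 over the channel labelled TKO at 7 promoters, 1 point per array, with the mean of 7 arrays as a line and the SD as a bar. The grey band spans the 5th to 95th percentile of 14530 promoters, from -0.41 to 0.21, and only the means of Lox and Vim lie above it.

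Lox had the highest mean ratio, 0.26 ± 0.18 (SD, n = 7), with arrays from 0.05 through a median of 0.23 to 0.53 and an adjusted p of 0.00269 in limma. All 7 arrays lay above 0, and the mean lay above that of 97.7% of promoters. Vim followed at 0.22 ± 0.06, with arrays from 0.13 through 0.22 to 0.32, an adjusted p of 1.83e-04 and a rank above 95.8% of promoters. Ccn2 had 0.20 ± 0.12, with arrays from 0.07 through 0.16 to 0.36 and an adjusted p of 0.0022, and Fn1 had 0.17 ± 0.10, with arrays from 0.07 through 0.13 to 0.36 and an adjusted p of 0.00291. In that order of means these neighbours differed by less than the SD between arrays.

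The collagen promoters and that of Thbs1 lay lower. Col1a2 had 0.13 ± 0.08 (SD, n = 7), with arrays from 0.00 through 0.11 to 0.23 and an adjusted p of 0.00742 in limma. Thbs1 had 0.09 ± 0.09, with 1 array below 0 at -0.04 and the highest at 0.24. Its adjusted p of 0.0495 missed the threshold without replicate 3, 4, 5, 6 or 7 (0.0658 to 0.134). Col1a1 had 0.05 ± 0.04, with 1 array below 0, and was not called (adjusted p 0.182; 95% interval -0.02 to 0.11). With normexp and median centring the calls of Col1a2 and Thbs1 were lost (adjusted p 0.221 and 0.215), and with normexp and loess that of Thbs1 (0.0531), while Col1a2 stayed called at 0.09 (0.00421).

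The probes lie between -996 and 386 bp from the start, by the distances the files give. Of the 37 probes 16 lay on the J1 side at an adjusted p under 0.05, where 19.7% of 80567 probes did, and 0 on the TKO side, where 22.1% did. At Lox the probe at -529 gave 0.66 ± 0.58 (SD, n = 7), the highest of the 37, but replicate 1 read 1.94 and the other arrays 0.29 to 0.67, a mean of 0.44 ± 0.15 without it. The next probe of Lox downstream gave -0.12 ± 0.16, with 6 of 7 arrays below 0. At Col1a1 the call was limited to the farthest probe, at -942, with 0.36 ± 0.12 and 7 of 7 arrays above 0. Its other 4 probes had means from -0.07 to 0.01.

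At Vim the probes at -900 and 113 gave 0.37 ± 0.09 and 0.38 ± 0.18, with all 7 arrays above 0 at both, and the probe at -401 gave 0.27 ± 0.25. At Ccn2 the probes at -587, -55 and 177 were called, with 0.29 ± 0.10, 0.27 ± 0.20 and 0.28 ± 0.14. The Ccn2 probe at -335 was well above background on 4 of 7 arrays and ran from -0.62 to 1.00. At Thbs1 the probe at 272 was called (0.30 ± 0.13), and the probe at 2, on the start itself, gave -0.01 ± 0.05. The called probes of Col1a2 were those at -862 and -583 (0.18 ± 0.13 and 0.20 ± 0.15), and those of Fn1 lay at -996, -186 and 94 (0.16 ± 0.13, 0.20 ± 0.12 and 0.22 ± 0.20).

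**Figure D5:**
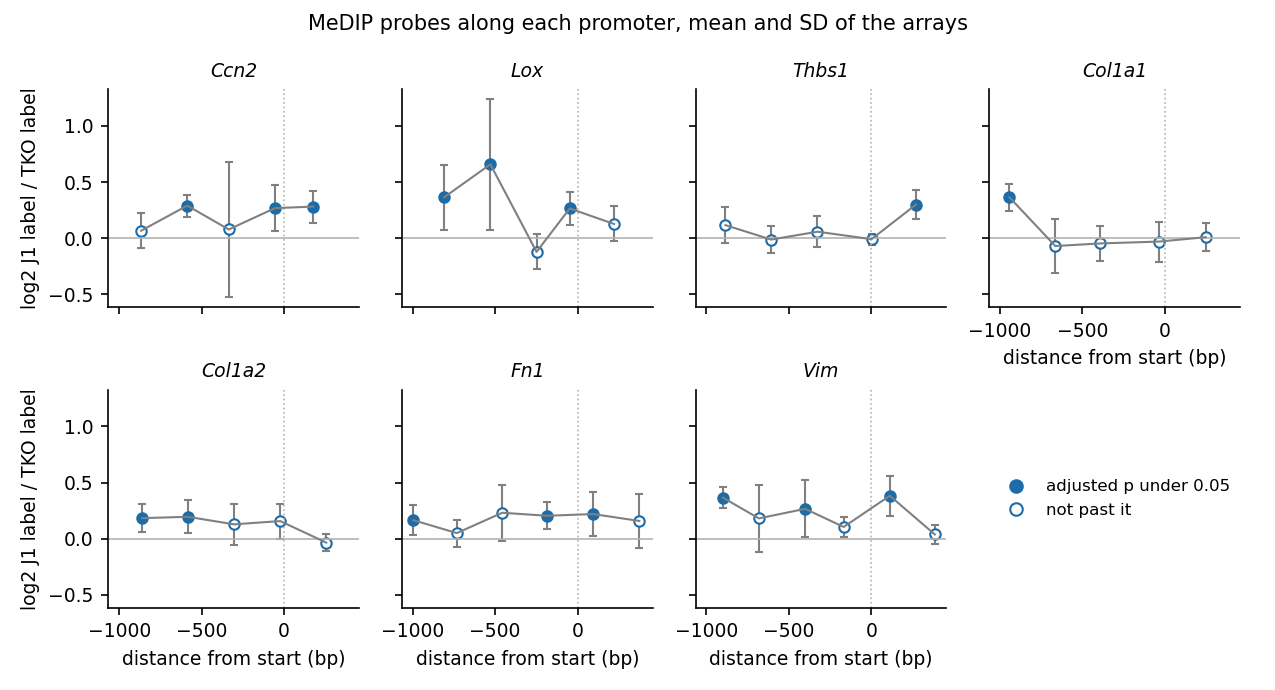
Mean log2 MeDIP ratio (channel labelled J1 over channel labelled TKO) of each probe against its distance from the start, with bars for the SD of the arrays. Filled points passed an adjusted p under 0.05 in limma. Of the 37 probes 16 are filled, all above 0, and the probe of Lox at -529 bp has the highest mean and an SD of 0.58.

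Set side by side, promoters called on the J1 side belonged to genes with RNA ratios on either side of 0, negative for Vim alone. Vim had an RNA ratio of -0.54 and a promoter ratio of 0.22, Lox had 1.37 and 0.26, and Ccn2 had 1.94 and 0.20. Thbs1 had 1.14 and 0.09, Col1a2 had 1.00 and 0.13, and Fn1, whose RNA was not called, had 0.08 and 0.17. Promoters of other listed genes lay on both sides. Of 18 promoters of other YAP and TEAD targets 4 lay on the J1 side and 2 on the TKO side at any size, and Ankrd1 was on the TKO side at -0.43 ± 0.22 (SD, n = 7). Of 24 promoters of other matrix genes 5 lay on the J1 side and 9 on the TKO side. Over all promoters the shares were 25.7% on the J1 side and 31.0% on the TKO side, and the counts for YAP and TEAD targets lay near or below them. Collagen processing genes gave 5 and 1 of 9, matrix receptors 7 and 4 of 15, and fibroblast markers 1 and 7 of 13.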

How the data were processed

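The authors scanned the arrays with Agilent Feature Extraction 8.5, per the submitters' processing notes; per the file headers it was 8.5.1.1, or 7.5.1 for 2 expression arrays. The deposited intensity values of both channels, and not the deposited log10 ratios, were the main input. Processed MeDIP intensities had been background-subtracted and linearly dye-normalised, per the file headers. No source used here names a genome build for the probes, so only distances are printed.

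For RNA, normexp (offset 50), loess within arrays and limma 3.58.1 (R 4.3.3) tested log2 TKO/J1 against 0, replicate 2 turned. The brightest probe stood for a gene, and it had to be well above background in 1 line on all 3 arrays. A probe's gene name came from the files of replicates 2 and 3. For MeDIP, log2 ratios of processed signals were centred on each array's median and averaged over promoters of at least 3 probes, split at gaps over 2000 bp, without loess. Parts were fitted apart, and p-values were adjusted by Benjamini-Hochberg over all genes, or over all promoters. Scripts were tested on simulated data. The number of arrays limits the precision.

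Named outside the 8 genes are the deleted genes, up to 4 called genes per list with the largest change, and the 3 genes nearest Ccn1; 1 listed gene is not reported here. The members and lists were chosen with earlier results of these data known.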

Additional observations from a re-analysis of the deposited data

Results flagged for a closer look

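Among 7 promoters and 36 probes with values on all 7 arrays, 4 probes had 1 array far from the other 6 by Dixon's ratio, and chance alone gives about 1 in 20. The Lox probe at -529 read 1.94 on replicate 1, against 0.29 to 0.67 on the others. The Vim probe at -401 read -0.28 on replicate 1 and had a mean of 0.36 ± 0.09 (SD, n = 6) without it. The Vim probe at -167 read 0.29 on replicate 6 and had 0.07 ± 0.04 without it. The Col1a2 probe at 256 read -0.20 on replicate 6 and had -0.01 ± 0.03 without it.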

How the results depend on the processing

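Of 101 tested RNA values of single genes under other settings, 95 kept their direction and side of the threshold, as did 100 of 112 MeDIP values. The count of genes lower in TKO went from 1 to 0 with median centring, and ran from 0 to 1 when replicates were left out in turn. Requiring 2-fold left 3 higher and 0 lower, with Col1a2 just under that size in the main processing. The calls in the pathway and matrix lists went from 62 to 23 with median centring. Those over all genes went from 2041 higher and 1902 lower to 380 and 740. Fn1, not called, turned from 0.08 to -0.16 with median centring (adjusted p 0.771) and to -0.19 without replicate 1 (0.349), within a range of -0.19 to 0.33 over the arrays left out. The Col1a1 promoter, not called, turned to -0.0061 with the median over probes (0.896). On the labelled J1 side 0 promoters at size 0.5 became 6 at any size. At size 0.5 1 of 37 single probes passed, that of Lox at -529, whose mean was 0.44 without replicate 1. The share of all probes passing at that size was not counted, so that count has nothing to be set beside. The cause of these shifts was not tested, except that a size rule calls fewer features by construction.

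The authors' deposited ratios were larger than these means by more than 1 SD for Ccn1, Ccn2, Lox, Col1a1 and Col1a2. Values from 2 arrays rest on replicates 1 and 2 alone. Leaving out either leaves a single array, whose spread limma takes from other genes. Slide as a random block could not be fitted for the expression arrays (0 of 7663 genes gave an estimate) or for the first promoter set. In the second, it changed no call of the 7 promoters. No paired analysis was possible because each array already holds both lines and the 2 promoter sets share numbers but no promoters.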
